A study of Homo sapiens with 2 samples.

Results

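The genes described here encode enzymes that add methyl groups to lysines, mainly of histones, and enzymes that take them off, together with the core subunits of Polycomb repressive complex 2 (PRC2). They were taken by symbol from the platform's annotation: genes whose symbol begins with KMT or KDM and a digit, or with SETD and a digit or letter, and EZH1, EZH2, EED, SUZ12, NSD1, NSD2, NSD3 and DOT1L. The rule uses symbols only, and no intensity. The rule also names ASH1L, which was not analysed here. It found 45 genes among the 19775 genes with a probe set paired with 1 gene, on 152 probe sets.

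RNA came from KYSE170-luc, a human esophageal squamous carcinoma line with a luciferase suffix, as 1 Affymetrix array after transfection with a SOX17 plasmid and 1 after transfection with the empty vector, both at 12 h. SOX17 is a transcription factor of the SOX family, and the comparison asks which transcripts differ after it is introduced. Both arrays thus come from 1 cell line and both carry the effect of transfection itself. With 1 array in each group there is no replicate and no p-value, and this small number of arrays sets how precise any value can be. In bulk RNA, fewer cells with a transcript and less of it per cell cannot be told apart.

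Methylation of lysine on histone tails marks the state of chromatin. Trimethylation of lysine 4 of histone H3 is found at active promoters, methylation of lysine 36 along transcribed genes, and methylation of lysine 9 or 27 at silent chromatin. SET domain enzymes write most of these marks, DOT1L works without a SET domain, and the marks are erased by the flavin dependent KDM1 enzymes and by JmjC domain enzymes, which use iron and oxoglutarate. Mutations of KMT2D, KMT2C and other members are frequent in squamous carcinomas.

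The values are linear intensities that the authors had scaled to a common level, and both arrays had a trimmed mean of 500.1. A floor was set at an intensity of 95, the 60th percentile over both arrays, and a gene counted as measured where a probe set lay at or above it on both arrays. By that rule 10042 genes were measured. The SOX17 gene had 2 probe sets, which read 83.8 and 6.5 on the SOX17 array, against 4.5 and 19.1 on the empty vector array. All 4 values were below the floor, so they leave the label unchecked. The spike-in poly-A control transcripts all read higher after SOX17 transfection (24 of 24 probe sets, median log2 ratio 0.57). Their part in the results was not tested. Of 13 genes listed as markers of epithelium, EPCAM and CDH1 among them, 10 had a probe set paired with 1 gene and all 10 were measured. KRT6A, KRT17 and TP63 had no such probe set. Their summed intensities over all probe sets, also those below the floor, were 165175.2 on the SOX17 array and 163712.0 on the empty vector array. The genes differ widely in level: SFN read 52641.3 and 50352.6 on the SOX17 and the empty vector array, and KRT5 273.0 and 247.5. None of the 3 leukocyte markers with a probe set and none of the 3 endothelial markers was measured. Of 6 fibroblast markers only COL1A1 was measured, a collagen gene, at 845.1 on the SOX17 array and 780.2 on the empty vector array.

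Of the 45 genes, 41 were measured, and their levels were close to each other on the 2 arrays. Differences are log2 ratios of SOX17 over empty vector, positive where the SOX17 array was brighter. Of the 41 genes 21 had a ratio above 0 and 20 below, with a median of 0.02 and a middle range (25th to 75th percentile) of -0.20 to 0.17. Over all measured genes 54.6% had a ratio above 0, the median was 0.03 and the middle range -0.17 to 0.21. That share is to be read beside the counts of signs given below for groups of genes. At 2-fold, 0 of the 41 were higher and 0 lower, against 0.418% and 0.329% of all measured genes. At 1.5-fold, 0 were higher and 2 lower, KDM6B and NSD3, against 3.77% and 3.19% of all measured genes. Just short of that size lay KMT5B, 1.48-fold lower, and NSD1, 1.47-fold higher. A log2 ratio within 0.25 of 0 was found for 27 of the 41 (65.9%) and for 60.7% of all measured genes. The 25 methyltransferase and PRC2 genes had a median of -0.09 and the 16 demethylase genes one of 0.04.

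**Figure D1:**
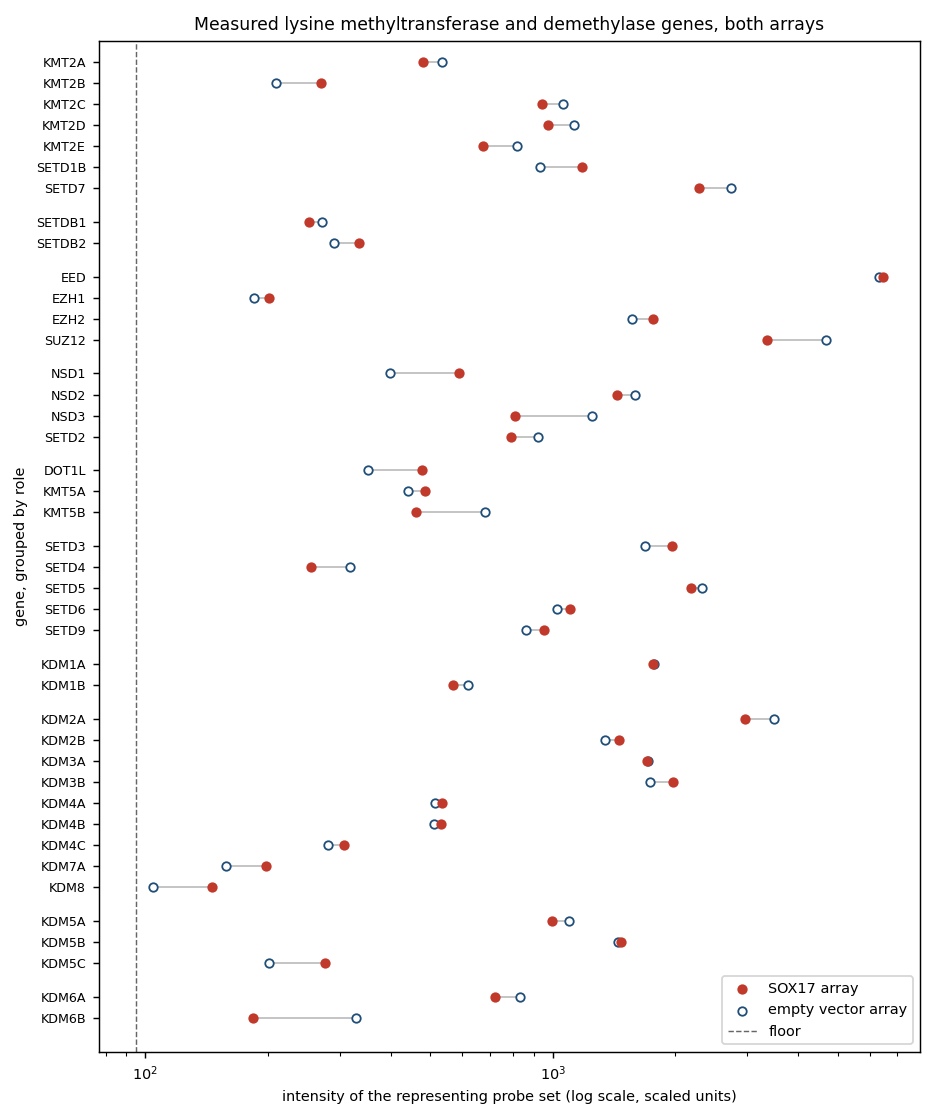
Intensity (horizontal log axis, scaled units) of the representing probe set of each of the 41 measured genes on the SOX17 array (filled) and on the empty vector array (open), grouped by role, with the floor of 95 as a dashed line. The 2 points of a gene are compared with each other only, since probe sets differ in brightness; the widest gap is that of KDM6B, at 184.3 and 328.2.

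Without replicates the only measure of error is within the arrays. Where a gene had several probe sets, in 4574 genes, the brightest pair gave an SD for a single log2 ratio of 0.35 at low levels, 0.26 at middle and 0.17 at high levels, by tertile of all measured genes. It leaves out the spread between cultures. Of the 41 genes 28 had a ratio within 1 such SD of 0, and 4 lay past 2 SD, while 60.6% of all measured genes lay within 1 SD and 9.89% past 2 SD. The 4 were SUZ12, NSD3, KDM6B and KMT5B, all lower on the SOX17 array on the representing probe set. NSD3, KDM6B and KMT5B also had measured probe sets above 0 (up to 0.58, 0.46 and 0.43), and SUZ12 had only 1 measured probe set. The SD is pooled over all genes, so it need not hold for genes whose probe sets disagree this much. As shares, 4 of 41 is close to the 9.89% of all genes.

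**Figure D2:**
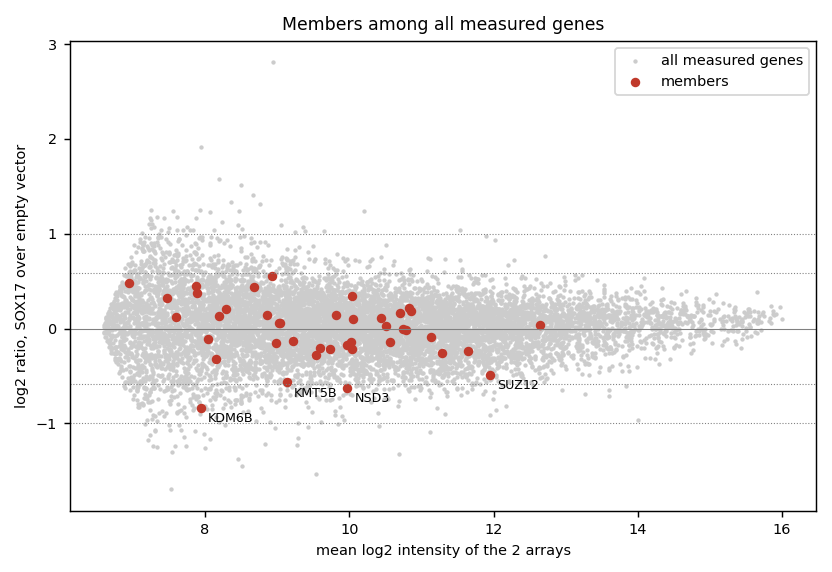
Log2 ratio of SOX17 over empty vector (vertical) against the mean log2 intensity of the 2 arrays (horizontal) for all 10042 measured genes (grey) and the 41 measured members (red), with dotted lines at 1.5-fold and 2-fold. The members lie inside the cloud of all genes, between -0.83 and 0.56, and the 4 named genes lie past 2 SD of 1 ratio at their level.

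For SUZ12, KDM6B and KMT5B the 250 bases before the annotated gene start are printed, because their ratios lay past 2 SD at their level, as did that of NSD3, whose window is not used here. The sequences are from RefSeq on build GRCh38.p14, at chr17:31936757-31937006 on the plus strand for SUZ12, chr17:7833967-7834216 on the plus strand for KDM6B and chr11:68213649-68213898 on the minus strand for KMT5B, each read 5′ to 3′ toward the gene. KDM6B has 2 starts in that table and KMT5B 3, and the first listed is shown. Capitals mark matches to ACAAT or ACAAAG, core words of SOX binding sites, on either strand (ATTGT and CTTTGT on the other strand).
SUZ12: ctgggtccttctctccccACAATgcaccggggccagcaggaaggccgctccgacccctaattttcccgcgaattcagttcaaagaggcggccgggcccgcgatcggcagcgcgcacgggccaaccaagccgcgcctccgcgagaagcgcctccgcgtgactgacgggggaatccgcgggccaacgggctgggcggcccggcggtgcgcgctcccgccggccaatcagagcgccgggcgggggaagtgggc
KDM6B: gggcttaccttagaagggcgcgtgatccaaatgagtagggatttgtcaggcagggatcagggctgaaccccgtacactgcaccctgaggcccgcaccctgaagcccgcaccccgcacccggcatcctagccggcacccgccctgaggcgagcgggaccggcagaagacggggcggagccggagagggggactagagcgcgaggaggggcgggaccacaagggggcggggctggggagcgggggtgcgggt
KMT5B: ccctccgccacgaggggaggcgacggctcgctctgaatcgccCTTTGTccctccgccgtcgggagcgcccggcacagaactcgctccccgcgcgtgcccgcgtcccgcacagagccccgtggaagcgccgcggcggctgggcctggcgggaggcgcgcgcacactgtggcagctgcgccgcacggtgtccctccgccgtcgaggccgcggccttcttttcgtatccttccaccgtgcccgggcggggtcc

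The match in SUZ12 begins 232 bases before the start and that in KMT5B 208 bases before it, and the KDM6B window holds neither word. Of the 42 genes of the set with a window in the table, 7 (16.7%) hold ACAAT on either strand, against 25.2% of 27305 windows, 1 per gene. ACAAAG is held by 3 (7.14%), against 13.7%. A match is a run of letters and no shown site. The windows of these genes are rich in the dinucleotide CG, with a median of 24, against 11 over all windows. The windows compared were not matched for it, and the 27305 go beyond the 10042 measured genes. The shares of motif words are thus not those of a like set. The printed windows hold 34 in SUZ12, 21 in KDM6B and 39 in KMT5B.

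Among the 8 genes listed as methyltransferases of lysine 4 of histone H3, 7 were measured, and 5 of them lay below 0 (median -0.17, 0 past 1.5-fold in either direction). KMT2A, the MLL1 enzyme of HOX gene promoters, read 481.6 on the SOX17 array and 534.2 on the empty vector array. Its 3 measured probe sets had log2 ratios of -0.30 to 0.07. KMT2B, its closest relative, read 270.5 and 209.1 on the SOX17 and the empty vector array (log2 ratio 0.37). Both differences lie near or within the SD of 1 ratio at their level.

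KMT2C and KMT2D, which place monomethyl marks at enhancers, were both slightly lower on the SOX17 array. KMT2C read 939.2 on the SOX17 array and 1059.3 on the empty vector array (log2 ratio -0.17), and its other measured probe set had a ratio of -0.40. All 6 of its probe sets had a ratio below 0, though 4 of them were not measured. KMT2D read 972.9 on the SOX17 array, against 1128.2 on the empty vector array (-0.21, with 3 probe sets from -0.21 to 0.02). KMT2E, a family member with little or no activity of its own, read 673.1 against 818.4 (-0.28), but its other 2 probe sets lay at 0.01 and 0.09.

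SETD1B, a subunit of a complex that trimethylates lysine 4 at promoters, was the other gene of the group above 0. It read 1179.9 on the SOX17 array and 928.9 on the empty vector array (log2 ratio 0.35, 1.27-fold, SD 0.26) and rests on 1 probe set. Its paralog SETD1A had 1 probe set, at 16.4 on the SOX17 array and 91.7 on the empty vector array. Both lie below the floor, so no fold is given. SETD7, which monomethylates lysine 4 and several nonhistone proteins, read 2288.7 on the SOX17 array and 2743.5 on the empty vector array (-0.26, SD 0.17).

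The PRC2 core subunits did not share a direction. EZH2, the catalytic subunit in dividing cells that methylates lysine 27, read 1759.2 on the SOX17 array and 1566.1 on the empty vector array (log2 ratio 0.17, SD 0.26). EED, which binds the trimethylated product and stimulates the enzyme, read 6461.1 and 6311.5 on the SOX17 and the empty vector array (0.03). A dimmer probe set of EED read 156 and 247.8 (-0.67). The SD of 1 ratio is wider at that dim level, 0.35.

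SUZ12, which holds the complex together, was lower on the SOX17 array and lay farthest from 0 relative to the error at its level. It read 3350.8 on the SOX17 array and 4692.2 on the empty vector array (log2 ratio -0.49, 1.40-fold lower, SD 0.17). That value rests on 1 measured probe set, and the other 2 probe sets lay below the floor, at 57.4 and 41.3 on the SOX17 array and 60.5 and 43.4 on the empty vector array. A probe set paired with both SUZ12 and its partial pseudogene copy SUZ12P1 went the other way, at 632.3 on the SOX17 array and 542.2 on the empty vector array (0.22). The probe set of SUZ12P1 alone read 138.6 and 327.4 on the SOX17 and the empty vector array (-1.24). The copies share sequence, and how much of each signal comes from which gene was not tested.

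EZH1, the alternative catalytic subunit of resting cells, was dim. It read 200.9 on the SOX17 array and 185 on the empty vector array (log2 ratio 0.12). Its 3 measured probe sets ran from -0.67 to 0.53, so they show no common direction. All had low levels, where the SD of 1 ratio is 0.35.

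The H3 lysine 36 methyltransferases held the highest and the second lowest ratio of the 41 genes. NSD1, which places dimethyl marks, read 588.7 on the SOX17 array and 399.4 on the empty vector array (log2 ratio 0.56, 1.47-fold higher, SD 0.35). Of its other 3 measured probe sets, those at 0.21 and 0.12 lay on the same side and the one at -0.89 (124.7 and 230.4) on the other. Its paralog NSD3, which lies in a region often amplified in squamous carcinoma, read 807.9 on the SOX17 array and 1245.2 on the empty vector array (-0.62, 1.54-fold lower, SD 0.26).

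NSD3 had the most measured probe sets of the set, 6, and they disagreed. A second bright one had a log2 ratio of -0.28, at 771.3 on the SOX17 array and 937.5 on the empty vector array. The other 4 lay above 0, from 0.11 to 0.58, and the mean over all 6 was 0.06. The direction given for NSD3 thus depends on which probe set stands for it. The gene makes a long and a short transcript, and the files do not say which probe set reads which.

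NSD2, another paralog, read 1437.4 on the SOX17 array and 1588.9 on the empty vector array (log2 ratio -0.14). Its second bright probe set lay at -0.20, while the 2 dim ones lay at 0.02 and 0.71. SETD2, the enzyme that trimethylates lysine 36 behind RNA polymerase II, was lower on both measured probe sets. It read 790.6 on the SOX17 array and 918.1 on the empty vector array (-0.22), and a dimmer probe set read 210.8 and 462.8 (-1.13), the lowest ratio of the 87 measured probe sets of the set.

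The methyltransferases of histone H3 lysine 79 and histone H4 lysine 20 were also mixed. DOT1L, the lysine 79 enzyme, read 476.9 on the SOX17 array and 352.8 on the empty vector array (log2 ratio 0.43), but its other measured probe set lay at -0.56. KMT5A, which monomethylates lysine 20 in mitosis, read 486 and 440.5 on the SOX17 and the empty vector array (0.14), and its 4 probe sets ran from -0.64 to 0.14. KMT5C lay below the floor on both probe sets.

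KMT5B, which with KMT5C adds the further methyl groups at lysine 20, was lower on its 2 brighter probe sets. They read 460.9 and 301.1 on the SOX17 array, against 681.7 and 425.1 on the empty vector array (log2 ratios -0.56 and -0.50). A dim probe set read 136.8 on the SOX17 array and 101.3 on the empty vector array (0.43), just over the floor. At the level of the brightest, the SD of 1 ratio is 0.26.

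**Figure D3:**
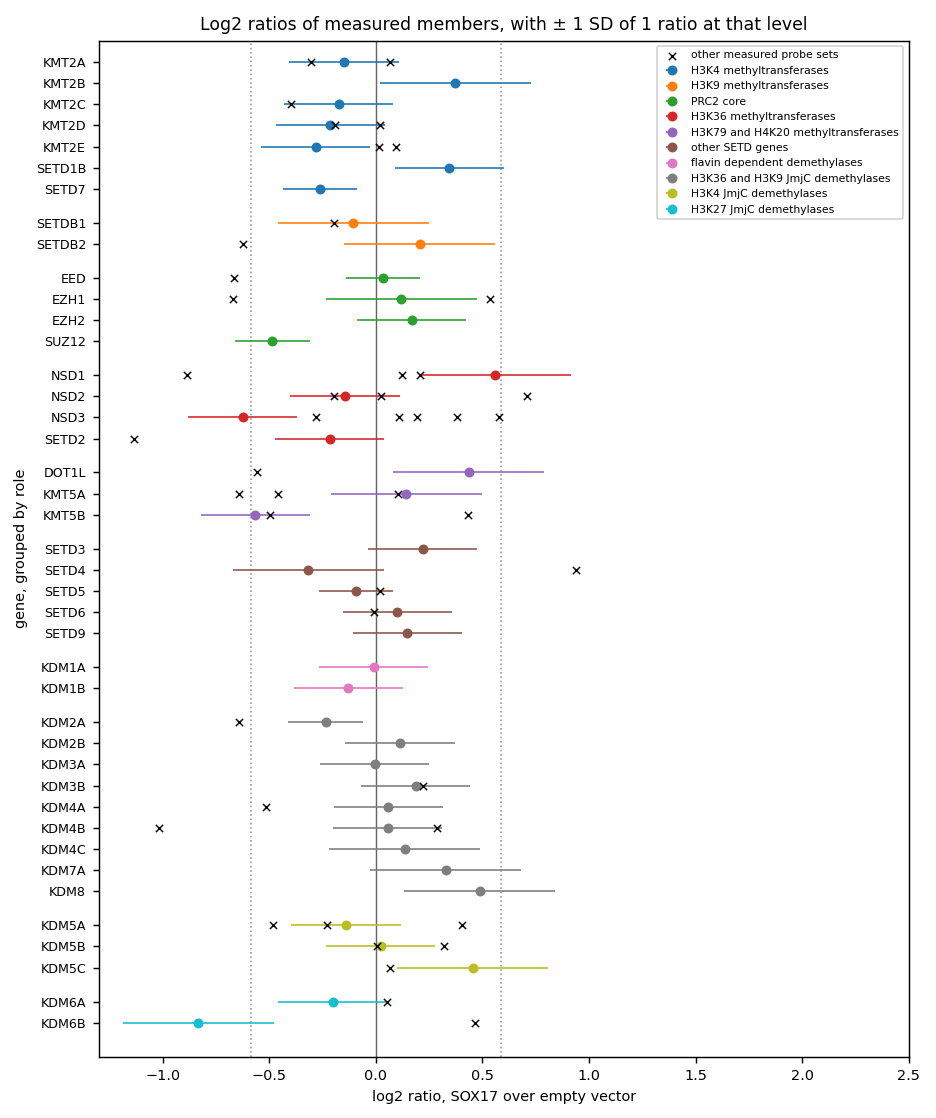
Log2 ratio of SOX17 over empty vector (horizontal) for the 41 measured genes, grouped by role, with the representing probe set as a coloured point, ± 1 SD of 1 ratio at its level as a bar, and the other measured probe sets as crosses; dotted lines mark 1.5-fold. KDM6B (-0.83) and NSD3 (-0.62) lie past the lower line, and both have crosses on the other side of 0.

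The H3 lysine 9 methyltransferases SETDB1 and SETDB2 lay close to 0. SETDB1, which silences retroelements with TRIM28, read 252.8 on the SOX17 array and 272.1 on the empty vector array (log2 ratio -0.11), and -0.20 on its other probe set. SETDB2 read 334.8 on the SOX17 array and 290.4 on the empty vector array (0.21). Its other measured probe set, at 244.3 and 375.9, lay at -0.62. So the sign for SETDB2 differs between probe sets.

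Of the SETD genes with other or less settled substrates all 5 were measured, with a median of 0.10. SETD3, a histidine methyltransferase of actin, read 1956.8 on the SOX17 array and 1680.4 on the empty vector array (log2 ratio 0.22). SETD5 read 2181 and 2325 on the SOX17 and the empty vector array (-0.09), and SETD6, which methylates the NF-kB subunit RELA, read 1099.4 and 1025.3 (0.10). SETD9 lay at 0.15. These 4 lay within 1 SD of 0. SETD4 read 255.4 on the SOX17 array and 318 on the empty vector array (-0.32), and its dimmer probe set, at 190.5 and 99.5, had the highest ratio of all 87 probe sets (0.94).

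The flavin dependent demethylases did not differ beyond the error within the arrays. KDM1A (LSD1), which removes methyl groups from lysine 4 in the CoREST complex, read 1763.6 on the SOX17 array and 1776 on the empty vector array (log2 ratio -0.01, SD 0.26). KDM1B, its relative at transcribed genes and in oocytes, read 567.8 and 621.1 on the SOX17 and the empty vector array (-0.13). Each rests on 1 measured probe set.

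Of the 10 JmjC demethylases of lysines 36 and 9 with a probe set, 9 were measured and 7 lay above 0 (median 0.11, 0 past 1.5-fold). The CpG island protein KDM2A, a lysine 36 demethylase, was an exception. It read 2963.5 on the SOX17 array and 3488.4 on the empty vector array (log2 ratio -0.24, SD 0.17), and its second probe set read 614.1 and 957.7 (-0.64). The remaining probe set lay below the floor on the SOX17 array at 50 and read 269.8 on the empty vector array, which is at least 2.84-fold lower on the SOX17 array against the floor. All 3 probe sets of KDM2A thus had a ratio below 0. Its paralog KDM2B, which brings a Polycomb complex to CpG islands, read 1450.6 on the SOX17 array and 1341.1 on the empty vector array (0.11).

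The lysine 9 demethylases KDM3A and KDM3B were near 0 as well. KDM3A, a hypoxia target, read 1707.5 on the SOX17 array and 1714.8 on the empty vector array (log2 ratio -0.01). KDM3B read 1973.6 and 1734.3 on the SOX17 and the empty vector array, with both probe sets above 0 (0.19 and 0.22). The SD at these levels is 0.26.

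The KDM4 enzymes act on trimethylated lysines 9 and 36. KDM4A read 535 on the SOX17 array and 513.6 on the empty vector array (log2 ratio 0.06), with -0.51 on its dimmer probe set. KDM4B read 531.9 and 512.1 on the SOX17 and the empty vector array (0.05). Its 3 measured probe sets ran from -1.02 to 0.29, and the lowest read 104 on the SOX17 array, near the floor, and 210.4 on the empty vector array. KDM4C read 308.2 on the SOX17 array and 280.5 on the empty vector array (0.14). KDM4D, known from testis, lay below the floor on both probe sets.

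KDM7A and KDM8 were dim, and both lay above 0. KDM7A, which acts on dimethylated lysines 9 and 27, read 198.1 on the SOX17 array and 157.8 on the empty vector array (log2 ratio 0.33). A further probe set of KDM7A went the other way, at 71.5 on the SOX17 array, below the floor, and 119.7 on the empty vector array. KDM8, whose demethylase activity is debated, read 146.1 and 104.3 on the SOX17 and the empty vector array (0.49). The SD of 1 ratio is 0.35 for genes this dim, and each rests on 1 measured probe set.

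The KDM5 enzymes remove methyl groups from lysine 4. KDM5A read 994.7 on the SOX17 array and 1095.8 on the empty vector array (log2 ratio -0.14), and its 4 measured probe sets ran from -0.48 to 0.41. KDM5B, a gene often high in epithelial tumours, read 1473 and 1449.8 on the SOX17 and the empty vector array (0.02), with all 3 probe sets above 0 and none above 0.32. The X-linked KDM5C read 275.8 on the SOX17 array and 201.3 on the empty vector array (0.45, SD 0.35), and 0.07 on its other probe set. KDM5D, on the Y chromosome, was below the floor on both arrays, and its level is not given.

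The lysine 27 demethylases both read lower on the SOX17 array on the representing probe set, and each had 1 other measured probe set, which lay above 0. KDM6A (UTX), a partner of KMT2C and KMT2D in their enhancer complexes, read 722.8 on the SOX17 array and 831.5 on the empty vector array (log2 ratio -0.20), and 0.05 on its other measured probe set. A further probe set of KDM6A read 30.5 on the SOX17 array, below the floor, and 102.8 on the empty vector array. KDM6B (JMJD3), which is induced by inflammatory signals in other cell types, had the lowest ratio of the 41 genes. It read 184.3 on the SOX17 array and 328.2 on the empty vector array (-0.83, 1.78-fold lower, SD 0.35). Its other measured probe set read 174.4 and 126.4 on the SOX17 and the empty vector array (0.46), and the next brightest lay below the floor at 49.9 and 60.3. So the lower reading of KDM6B was seen on 1 of 2 measured probe sets.

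Such disagreement was common in the set. More than 1 probe set was measured for 27 genes, and 20 of them (74.1%) had readings on both sides of 0, against 51.3% of 4574 genes in all, and the median range between probe sets of a gene was 0.70, against 0.33. Those below 0 throughout were KDM2A, KMT2C, SETD2 and SETDB1, and those above 0 throughout KDM3B, KDM5B and KDM5C. Of the 27 genes 0 passed 1.5-fold on every probe set, while 23 of the 4574 did. Genes with more probe sets have more chances to disagree, and neither the number nor the level of the probe sets was matched here.

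Among the 87 measured probe sets of the set, 10 (11.5%) read lower on the SOX17 array by 1.5-fold or more, while 2 (2.30%) read higher by that size, against 4.61% and 3.96% of all 17364. At 2-fold, 2 were lower, in SETD2 and KDM4B, and 0 higher, against 0.507% and 0.403%. The 10 belong to 10 genes, KDM2A, KDM4B, KDM6B, KMT5A, NSD1, NSD3, SETD2, EED, EZH1 and SETDB2, and 8 of them are not the probe set that stands for the gene. The limits of the level tertiles are those of the measured genes, and the lowest held 7490 of the 17364 probe sets. Within the lowest tertile of level, 8 of 49 (16.3%) were at least 1.5-fold lower, against 7.85% of all, and 2 (4.08%) higher, against 7.48%. Within the middle tertile 2 of 33 (6.06%) were lower, against 2.89%, and 0 higher, against 1.98%. In the highest tertile 0 of 5 were lower, against 1.21%, and 0 higher, against 0.435%. Probe sets of a gene share their target, so these counts are not of independent measurements.

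The enzymes work in complexes with other proteins. Of 13 partners of the KMT2 and SETD1 complexes all were measured, 9 above 0 and 4 below (median 0.11), with 1 at least 1.5-fold higher and 1 at least 1.5-fold lower. HCFC1, a scaffold that ties SETD1 and KMT2 complexes to promoters, was the only one past 2-fold. It read 221.9 on the SOX17 array and 604.1 on the empty vector array (log2 ratio -1.44, 2.72-fold lower, SD 0.35) on its 1 measured probe set. PAGR1, a subunit of the KMT2C and KMT2D complexes, read 1035.1 and 640.9 on the SOX17 and the empty vector array (0.69), but -0.06 on its other probe set. CXXC1, which brings SETD1 to CpG islands, lay at 0.54, and the tumour suppressor MEN1 at 0.41.

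Of the 9 measured PRC2 partners 4 lay above 0 and 5 below (median -0.03, 0 past 1.5-fold). LCOR lay at -0.42 and MTF2, which guides PRC2 to CpG islands, at -0.34, with all 5 of its probe sets between -0.36 and -0.06. JARID2 lay at 0.26 and AEBP2 at -0.26. The 9 measured partners of KDM1A had a median of -0.07, with ZNF217 at -0.37, ZMYM2 at -0.34, HMG20B at 0.32 and the deacetylase HDAC1 at 0.31. None of these was past 1.5-fold on its representing probe set. Some other measured probe sets were. LCOR had one at -0.75, RBBP4 one at -0.67 (0.16 on its representing one) and RCOR3 one at 1.31 (-0.13 on its representing one).

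Related enzymes outside the set were counted as well. Of 11 measured lysine methyltransferases of other names 9 lay above 0 (median 0.17). SUV39H1, which trimethylates lysine 9 at heterochromatin, read 430.2 on the SOX17 array and 270.9 on the empty vector array (log2 ratio 0.67, 1.59-fold higher, SD 0.35) and was the only one past 1.5-fold. SMYD1 lay at 0.41, near the floor, SETMAR at 0.29 and SMYD4 at 0.28. Of 11 measured JmjC genes of other names 6 lay above 0 (median 0.01), with JMJD4 at 0.43, JMJD8 at -0.41, JMJD1C at -0.36 and HR at -0.28.

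**Figure D4:**
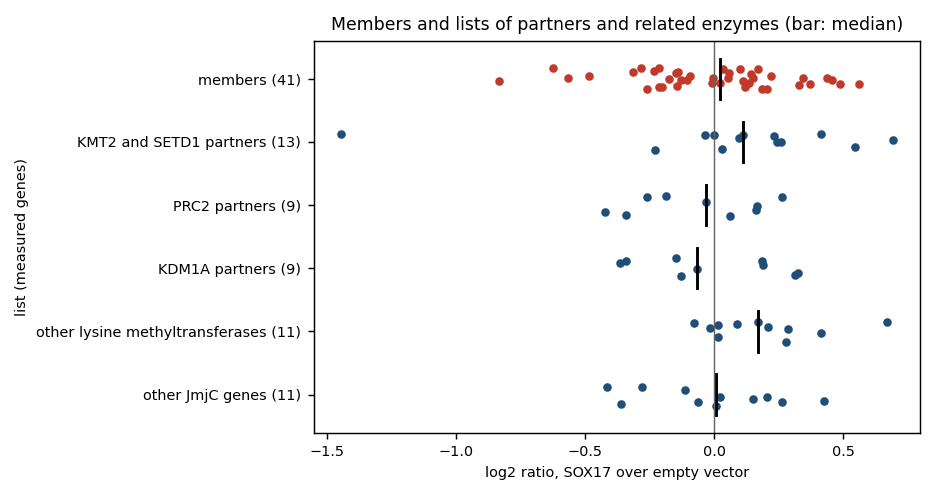
Log2 ratio of SOX17 over empty vector (horizontal) for each measured gene of the set and of 5 lists of partners and related enzymes (rows, with the number of measured genes), with the median as a bar; vertical scatter within a row carries no value. The medians run from -0.07 to 0.17, and HCFC1 at -1.44 is the only point past 2-fold.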

How the data were processed

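Per the labels' protocols, total RNA was extracted with Trizol and biotinylated cRNA was hybridised to Affymetrix arrays. The deposited table gives an intensity on a linear scale for each probe set. Per the submitters' processing notes the authors used GCOS; its version, the summary algorithm and the detection calls are not given in the sources used here. By the values, both arrays have the same mean without the lowest and highest 2%. Values were used as deposited, and 62 control probe sets were left out. Names come from GEO's platform annotation: 41091 probe sets were paired with 1 gene, 1801 with several and 11721 with none. Of the symbols of the set 0 were absent from a table of current RefSeq genes.

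A gene was represented by its measured probe set with the highest mean log2 intensity. The log2 ratio was described by size only, at 2-fold and 1.5-fold. The SD of 1 ratio is the SD of the difference between the ratios of a gene's 2 brightest measured probe sets, divided by the square root of 2, by tertile of level. It is taken from different probe sets, so it also holds true differences between transcripts. Every measured gene of the set is named, and of each partner list the 4 genes with the largest absolute ratio. The members and lists were chosen with earlier results of these data known. Alternatives were 3 other scalings, an offset of 50, 3 other floors, the mean over probe sets, and dropping probe sets with the suffix _x_at or _s_at. The software was Python 3.11.15 with pandas 2.3.3, numpy 2.4.6, statsmodels 0.14.6 (loess, span 0.4) and matplotlib 3.10.9, and the functions were tested on simulated data.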

Additional observations from a re-analysis of the deposited data

Results flagged for a closer look

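A probe set of KMT2A outside the measured ones lay below the floor of 95 on the empty vector array and above it on the SOX17 array. It read 198.2 on the SOX17 array and 83.8 on the empty vector array, at least 2.09-fold higher against the floor, while the 3 measured probe sets of KMT2A lay between -0.30 and 0.07 on the log2 scale. Another unmeasured probe set of KMT2A crossed the floor the other way, at 69.7 on the SOX17 array and 119.1 on the empty vector array. Of all 11 probe sets of the gene 5 had a ratio below 0.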

How the results depend on the processing

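No paired analysis was possible because each group has 1 array and no test was made. Of 350 ratios of single genes under the alternatives, 334 moved by less than the SD of 1 ratio, 15 by more, and 1 changed sign from a value past 1.5-fold: NSD3, at 0.0587 with the mean over probe sets. The pooled count says little about stability, since a changed floor can alter a ratio only by changing the probe set used. All these changes came from the choice of probe set. Without _x_at and _s_at probe sets 3 moved and 29 did not. With the mean over probe sets 12 moved, 1 reversed and 28 did not move, though only 27 genes had several measured probe sets. The median of the set was -0.0375 with that mean, and the cause was not tested. It moved other medians too: PRC2 core to -0.16, lysine 36 methyltransferases to 0.0298, lysine 79 and 20 methyltransferases to -0.21, lysine 27 demethylases to -0.13 and KDM1A partners to 0.0942. Without _x_at and _s_at probe sets the PRC2 core lay at -0.49, the lysine 27 demethylases at -0.83 and the other lysine methyltransferases at 0.0281. In that setting the PRC2 core lacked EZH2 and took EED from its dim probe set (-0.67). The lysine 27 demethylases were then KDM6B alone, so -0.83 is no median of a group. With no floor the lysine 4 demethylases lay at 0.24 and the lysine 79 and 20 methyltransferases at -0.21. With a floor at the 75th percentile the lysine 27 demethylases lay at -0.20, which is KDM6A alone, as KDM6B was not measured there.

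With the floor at the 75th percentile 1 of 31 genes of the set was at least 1.5-fold lower, against 135 of 7566 genes in all. With the mean over probe sets it was 1 of 41 (SETD2 at -0.68, while KDM6B lay at -0.18), against 243 of 10042. Without _x_at and _s_at probe sets 4 of 32 were lower by that size, against 289 of 7398. With no floor 4 of 45 were, against 2880 of 19775. At least 1.5-fold higher were 1 of 32 without those probe sets, against 302 of 7398, and 2 of 45 with no floor, against 4238 of 19775. At 2-fold, 1 of 32 was lower without those probe sets, against 35 of 7398. With no floor 2 of 45 were 2-fold higher and 2 lower, against 2811 and 1874 of 19775. Of all genes, with the offset of 50, 227 were 1.5-fold higher and 211 lower, and 12 and 12 at 2-fold. With the floor at the 50th percentile 671 were 1.5-fold higher, and 125 higher and 82 lower at 2-fold. With the floor at the 75th percentile 108 were 1.5-fold higher and 135 lower, and 7 and 9 at 2-fold. With no floor these counts were 4238, 2880, 2811 and 1874. A changed floor changes which genes are counted. Dropping the _x_at and _s_at probe sets does so too. It also put other probe sets in place for EED (-0.67), KDM4B (-1.02) and SETD4 (0.94). The cause of the remaining changes was not tested.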
